A study of Mus musculus with 23 samples.

Results

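The colon of mice given dextran sulfate sodium (DSS) for 2 days was compared with the colon of untreated mice, across all genes on the array, to describe what differed before inflammation genes reached their later levels. Of the 23 arrays in the series, 11 belong to these groups, chosen by the day in the array titles. The 5 day 0 arrays came from untreated mice and the 6 day 2 arrays from mice that drank 3% DSS. All were C57BL/6J mice aged 12 to 14 weeks, with no allele or second agent named, and the titles give each array the number of 1 mouse. Each array is called by its day and the number of its mouse. The labels name no cohort and do not say what a number shared between days stands for. Total RNA was hybridized to Affymetrix Mouse Genome 430 2.0 arrays, which measure many genes with several probe sets. Each probe set is a group of short probes against 1 transcript. The labels name neither the hour of collection nor the piece of colon, and no hybridization batch.

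DSS is a sulfated polysaccharide that, in drinking water, injures the colon epithelium and is widely used to induce colitis in mice. The colon lining is renewed from stem cells at the crypt base, which are kept dividing by Wnt signals, while bone morphogenetic protein (BMP) signals act toward the crypt mouth. Beneath the epithelium, plasma cells of the lamina propria make the immunoglobulin A that is carried into the lumen. Colon cells also hold a circadian clock, in which Clock or Npas2 with Arntl drive the Per and Cry repressors and output genes such as Dbp, so that many transcripts swing with the hour of day.

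At 2 days 10 genes of 12463 passed the test, 2 higher and 8 lower, which is 0.0160% and 0.0642% of the genes tested and 0.0802% in all. Krt7, a simple epithelial keratin, and the clock output gene Dbp rose. Axin2, a Wnt target that feeds back on the pathway, fell to 0.489 of its day 0 level, and Jchain, the chain that joins immunoglobulin A units, to 0.546. The other genes that fell were Cpm, Lonrf3, Clock, Sike1, Fbxo33 and Ube2s. Differences are in log2(signal + 16), fitted with limma with Benjamini-Hochberg adjustment over all genes, and a gene passed where its adjusted p reached 0.05 or lower. On this scale a gene of low signal shows a smaller fold than its signals do. Colon from different animals enters as replicates as far as the labels tell. The fit also took in the arrays of the later days, so the test measures the spread between arrays within every day of the series.

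The arrays of days 0 and 2 had median signals of 97.3 to 114.1, and over days 4 and 6 the highest was 121.4. Genes of absorptive colonocytes and goblet cells were high on each of the 11 arrays: the 31 colonocyte genes summed to a signal of 300300 to 327100 at day 0 and 301900 to 337500 at day 2, as the tissue label says. Other tissues were present unevenly. The 9 measured pancreas genes summed to 190600 on day 2 mouse 6 and to 45360 to 56380 on the other 10 arrays. The 20 skeletal muscle genes ranged from 4501 on day 2 mouse 8 to 100300 on day 2 mouse 6, against 17810 to 35180 at day 0. The 29 squamous genes summed to 14590 on day 2 mouse 8 and to at least 29390 elsewhere. Among these 11 arrays day 2 mouse 8 also had the lowest median correlation with its group, 0.9573. Results are therefore given without mice 6 and 8 where this ends a call. The ratio of 3' to 5' probe signals, a measure of RNA integrity, differed between days 2 and 0 by 0.03 in log2 for beta-actin and 0.05 for Gapdh (exact permutation tests over arrays, adjusted p = 0.268 for both).

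Krt7 had signals of 3339, 2889, 2772, 2329 and 2692 in the day 0 mice and, at day 2, a lowest signal of 3813, a median of 4151 and a highest of 4447. All 6 day 2 arrays lay above all 5 day 0 arrays, a log2 difference of 0.57 ± 0.09 (SE, adjusted p = 0.00726). Krt7 was 1 of 7 simple keratins measured. The others that passed numbered 0, and Krt8, Krt18 and Krt19 had differences of 0.11, 0.18 and 0.12, while Krt20, a keratin of surface colonocytes, had -0.01.

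Axin2 read 801.6, 751.8, 882.3, 746 and 669 at day 0 and 271 to 508.4 at day 2, with a median of 367.6. Its difference of -1.03 ± 0.15 had the smallest p of all genes (adjusted p = 0.00571). Sike1, which encodes a suppressor of the kinases IKK-epsilon and TBK1, read 1114, 1149, 1191, 1259 and 1081 at day 0 and 750.5 to 892.4 at day 2, with a median of 823.7. The groups did not overlap for either gene, and the Sike1 difference was -0.48 ± 0.07 (adjusted p = 0.00571). In whole tissue, fewer cells of a type and less RNA per cell cannot be told apart.

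Lonrf3, a RING finger and LON domain protein, had day 0 signals of 841.4, 718.9, 749.1, 509.8 and 600.9. Its day 2 signals ran from 350 to 449.4 with a median of 378.3, below every untreated array, and the difference was -0.78 ± 0.13 (adjusted p = 0.00726). With the mean of all kept probe sets in place of the brightest, Lonrf3 did not pass. Cpm, a membrane carboxypeptidase, read 1525, 1875, 1535, 1039 and 1528 at day 0 against 551.9 to 981.8 at day 2 (median 682.1). The lowest untreated signal of Cpm, on mouse 4, lay just above the highest treated one, and the difference was -1.06 ± 0.20 (adjusted p = 0.0298). Fbxo33, an F-box protein, fell by 0.43 ± 0.08 and Ube2s, the ubiquitin-conjugating enzyme of the anaphase-promoting complex, by 0.40 ± 0.08 (adjusted p = 0.0427 for both). Ube2s signals were 3149 to 3873 at day 0 and 2166 to 3081 at day 2, so its groups were apart by a small margin, and those of Fbxo33 were 1053 to 1280 and 731.1 to 995.7.

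**Figure D1:**
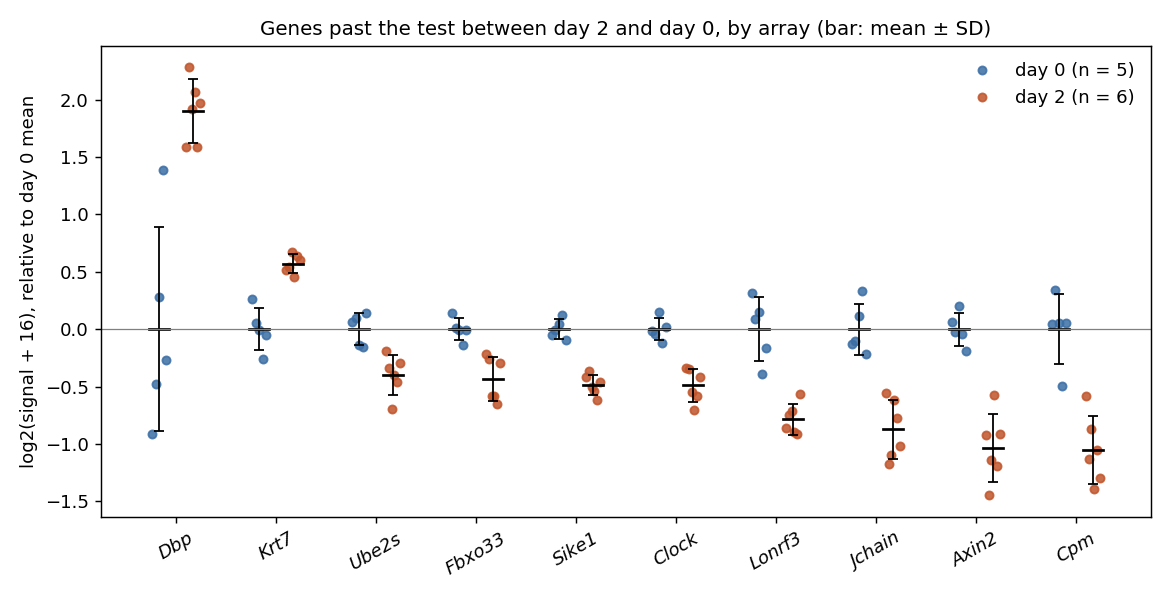
Signals of the 10 genes that passed, 1 point per array (5 at day 0, 6 at day 2), as log2(signal + 16) relative to the day 0 mean; the bar is the mean and the whiskers 1 SD. Day 2 points lie wholly above day 0 for Dbp and Krt7 and wholly below for the other 8, and day 0 mouse 4 is the high Dbp point with a signal of 1841.

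The number of calls moved with the arrays and the fit. Leaving out 1 array of the 11 at a time gave 4 to 32 genes, with the fewest where the array left out was mouse 1 or 2 of day 0 or mouse 17 of day 2, and the most where it was mouse 4 of day 0. Axin2, Krt7, Sike1 and Lonrf3 passed in all 11 of these fits, while Cpm, Clock, Dbp, Jchain, Fbxo33 and Ube2s each missed in 7 to 9 of them. Without day 2 mice 6 and 8 together, Axin2, Krt7 and Sike1 passed, and the highest adjusted p of the other 7 genes was 0.175, for Dbp. Without day 2 mice 17 and 52 together, an alternative chosen after seeing the data, 0 genes passed in limma, with 1332 at an unadjusted p below 0.05, and the adjusted p of Axin2, Sike1 and Krt7 was 0.064, 0.064 and 0.0849. A fit to the 11 arrays alone gave 34 higher and 26 lower genes, 8 of them among the 10, and weights for array quality gave 53 and 82, with all 10 among them.

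Most differences at 2 days were small. Of the 12463 genes, 53.7% were higher at day 2 and the median difference was 0.01. An unadjusted p below 0.05 was reached by 6.62% of genes higher and 6.18% lower. In 283 genes (2.27%) the day 2 and day 0 arrays did not overlap: all day 2 arrays lay above all day 0 arrays in 158 and below them in 125. Among these, 7 and 6 differed by 2-fold or more, and the median difference was 0.33 for the higher and -0.38 for the lower genes.

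Probe sets of 1 gene were then set side by side. In 5546 genes 2 or more probe sets passed the filter on low signals, and in 54.1% of them all differences had the same sign. The share was 65.1% with 2 probe sets, 44.3% with 3 and 28.4% with 4 or more. Genes were counted as agreeing where all probe sets had 1 sign and at least 2 of them separated the arrays of the groups without overlap. By this rule 6 genes were higher (0.108% of the 5546) and 21 were lower (0.379%), and Dbp, Cpm and Sike1 were the 3 that had also passed the test. Another 4 of the 10 genes past the test have a single kept probe set and could not enter.

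The 6 higher genes were Dbp, Per3, Casp12, Dgat2, Cipc and Wars, with median differences of 1.84, 0.78, 0.56, 0.48, 0.42 and 0.24. Dbp, Per3 and Cipc belong to the clock or bind its proteins. Casp12, a caspase linked to the endoplasmic reticulum, had differences of 0.57 and 0.56 in its 2 probe sets, and its gene-level signals were 207.5 to 316.8 at day 0 and 350.8 to 539.4 at day 2. Dgat2, an enzyme that makes triacylglycerol, read 861.9 to 1211 at day 0 and 1272 to 1910 at day 2. Wars, the tryptophan transfer RNA synthetase, had 4 probe sets, all between 0.14 and 0.30.

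Among the 21 lower genes Ascl2, Rgcc, Cpm and Marchf3 had the largest medians, -1.05, -1.05, -1.01 and -0.998. Ascl2 is a transcription factor of crypt stem cells, and its 3 probe sets had differences of -1.49 to -1.04. Rgcc, a regulator of the cell cycle, read 1078, 910.9, 866.2, 833.9 and 1175 at day 0 and 262.9 to 687.5 at day 2 (median 542.5). The 2 probe sets of Rgcc had nearly the same difference, -1.06 and -1.04, and the dimmer one passed over all probe sets (adjusted p = 0.0366).

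Next came Ttr, which carries thyroxine and retinol, with 4 probe sets between -0.69 and -0.59, then Cbl (-0.57), an E3 ligase of receptor tyrosine kinases, and Hopx (-0.56), a homeodomain protein found in some stem cells and in mature colonocytes. Aqp4, a water channel, had a median of -0.55 and signals of 6383 to 7794 at day 0 against 3810 to 5990 at day 2. The remaining genes were Khnyn (-0.53), Sike1 (-0.50), Ssx2ip (-0.46), Igha (-0.45), Cttnbp2nl (-0.40), Pi4k2b (-0.39), Ankrd11 (-0.31), Plekha8, Elf2, Cldn12, Atf2, Cpd and Trim37. The smallest median was that of Trim37, -0.18. Ankrd11 spanned -1.25 to -0.15 over 7 probe sets, so probe sets with 1 sign could still differ widely in size.

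**Figure D2:**
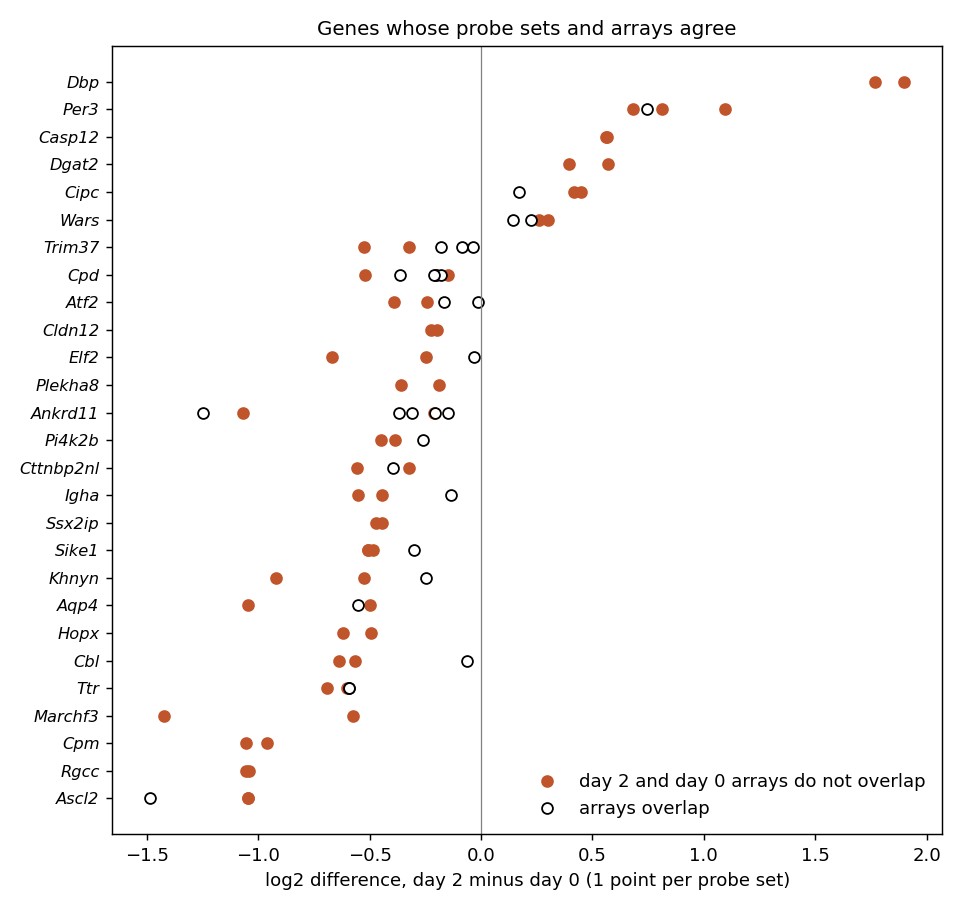
Difference between day 2 and day 0 in each probe set of the 27 agreeing genes, in log2(signal + 16); filled points are probe sets whose arrays do not overlap between the days, open points those that overlap. Sike1 (-0.51 to -0.30 over 4 probe sets) and Rgcc (-1.06 and -1.04) are tight, and Ankrd11 is spread from -1.25 to -0.15.

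Over all 24627 probe sets, 7 passed higher and 23 lower (0.122% in all). Of the 30, 25 have 1 gene symbol and belong to 22 genes, of which 12 had not passed at gene level because a brighter probe set stood for the gene. They include Slk, Cklf, Hnrnpu, Kmt2c, Akap10, Marchf7, Ptger4 and Hopx, each with 1 probe set that passed on the lower side. The brightest probe set had -0.49 in Hopx and -0.24 in Slk, but -0.07 in Cklf, -0.04 in Akap10, 0.01 in Hnrnpu, 0.12 in Kmt2c and 0.13 in Marchf7, so the probe sets of these last 5 genes differed in size or sign. In Ptger4, the prostaglandin E2 receptor EP4, the dimmer probe set fell by 0.63 ± 0.12 (433.4 to 497.6 at day 0, 240.1 to 372.2 at day 2, adjusted p = 0.0231), and the brighter one had -0.47 ± 0.11 (adjusted p = 0.0665 over genes). In Igf2r, the mannose 6-phosphate receptor, probe sets also disagreed: 1 fell by 0.45 ± 0.09 (adjusted p = 0.0445), and the brighter one had 0.15 ± 0.11. The 5 others have no single symbol, and 4 of them were higher, of which the one with the smallest p rose by 0.36 ± 0.05 from 7830 to 8781 at day 0 to 9868 to 11530 at day 2 (adjusted p = 0.00219).

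Dbp had the largest difference of all genes whose arrays did not overlap between the days, and other clock genes lay on its side or opposite it. Of 14 measured genes that peak with Dbp, 1 passed, 10 had an unadjusted p below 0.05 on the higher side, against 6.62% of all genes, and 0 on the lower side. Their median difference was 0.54, against 0.01 for all genes. Of 6 genes that peak with Arntl, Clock passed, 4 had an unadjusted p below 0.05 on the lower side, against 6.18% of all genes, and the median was -0.59. By sign, 11 of the 14 genes of the Dbp list were higher and 3 lower. In the Arntl list 5 were lower and 1 was higher, at 0.24. Of all genes 53.7% were higher and 46.3% lower. The medians of the 2 lists thus lay on opposite sides of 0, though not every member did.

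Dbp, a transcription factor whose level follows the clock, read 360.5, 493.5, 845.8, 1841 and 573.9 at day 0. At day 2 its signals ran from 2112 to 3437 with a median of 2721. Day 0 mouse 4 was high among the untreated mice, yet below every treated one, and the difference was 1.90 ± 0.37 (adjusted p = 0.0427), a 3.73-fold rise on the scale used. The second probe set rose by 1.77. Per3, a clock repressor, read 118.8, 154.9, 119.5, 291.6 and 155.6 at day 0 and 310.3 to 436.5 at day 2 (median 349.3), again with mouse 4 the highest untreated array and with no overlap. Its difference was 1.09 ± 0.25 (adjusted p = 0.0676).

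Ciart, a repressor that acts on Clock and Arntl, read 112.1, 152.9, 123.4, 273.2 and 122.8 at day 0 and 317.2 to 418.2 at day 2 (difference 1.23 ± 0.39, adjusted p = 0.177). Tef, a relative of Dbp, ran from 945.5 to 2108 at day 0 and from 1842 to 2921 at day 2 (0.86 ± 0.23, adjusted p = 0.102). Dbp, Per3 and Ciart were the 3 of the 14 without overlap, against 2.27% of all genes, while mouse 4 of day 0 put Tef within the treated range. Nr1d2 and Nr1d1, receptors that repress Arntl, had differences of 0.51 and 0.54, and Hlf, Usp2 and Cry2 had 0.56, 0.54 and 0.45. Per2 varied most among untreated mice, from 185.3 on mouse 1 to 1356 on mouse 4, and its day 2 signals of 461.8 to 1185 lay within that range. Per1 had 0.20 ± 0.18. Per2 and Per1 also answer quickly to other signals, whose part in these values was not tested.

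On the opposite side, Clock, the partner of Arntl, read 2058, 2013, 2307, 1912 and 2108 at day 0 and 1268 to 1633 at day 2 (median 1484). The groups did not overlap and the difference was -0.49 ± 0.09 (adjusted p = 0.0298). The 3 dimmer probe sets of Clock had smaller differences, and with the mean of all probe sets the adjusted p was 0.241. Arntl read 955, 1130, 1121, 637.1 and 872.1 at day 0 and 400.5 to 692.1 at day 2 (-0.74 ± 0.17, adjusted p = 0.0756). Npas2, which can stand in for Clock, read 610.9, 565.9, 508.3, 264.5 and 392.2 at day 0 and 142.5 to 326.4 at day 2 (-0.999 ± 0.220, adjusted p = 0.0641). In both genes day 0 mouse 4 was the lowest untreated array, the reverse of its place in Dbp, and it alone overlapped the treated arrays. Cry1 had -0.54 ± 0.19 and Nfil3, a repressor that opposes Dbp, -0.65 ± 0.37.

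As a mean over list members in log2, the level of the Dbp list was 9.11 to 9.48 on 4 untreated arrays, 9.97 on day 0 mouse 4 and 9.86 to 10.21 at day 2. The Arntl list was at 8.48 to 9.02 at day 0 and 7.95 to 8.41 at day 2, without overlap. Without day 0 mouse 4 the medians were 0.63 and -0.69. At later days the Dbp list had median levels of 9.76 at day 4 and 9.30 at day 6, against 9.23 at day 0 and 9.96 at day 2. The part that the hour of collection has in these values was not tested.

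**Figure D3:**
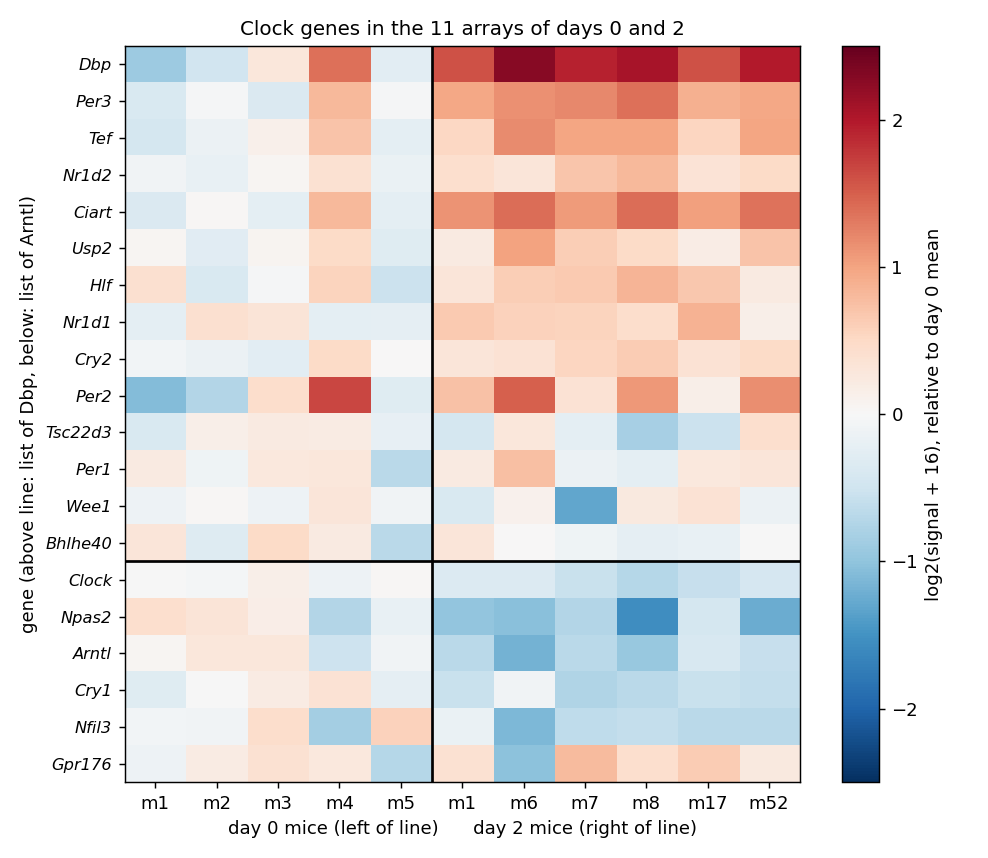
Colour gives log2(signal + 16) relative to the day 0 mean, blue for lower and red for higher, for 20 clock genes (rows) in the 11 arrays (columns, m followed by the mouse number). Genes of the Dbp list above the line are mostly red at day 2 and genes of the Arntl list below it mostly blue, and day 0 mouse 4 has the colours of day 2 in Dbp, Per2 and Npas2.

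Promoters are shown for 3 of the clock genes that lay higher. These were the 3 whose 250 bases before the start hold a known clock motif in the reference table and whose difference was 0.86 or more. The limit of 0.86 was not set in advance. Per1, which also holds a motif, had a smaller difference and is not shown. The E-box CACGTG, which Clock and Arntl bind, reads the same on both strands. The D-box was searched as TTANGTAA on both strands, and none of the 3 windows held another of the motifs searched, so no match overlapped another. Sequences are from RefSeq, build GRCm38.p6, written 5' to 3' on the strand of the gene, with the motif in capitals. Ciart lies at chr3:95882229-95882478, minus strand, with 3 E-boxes, Tef at chr15:81802423-81802672, plus strand, with 1 E-box, and Per3 at chr4:151044666-151044915, minus strand, with 2 D-boxes.
Ciart: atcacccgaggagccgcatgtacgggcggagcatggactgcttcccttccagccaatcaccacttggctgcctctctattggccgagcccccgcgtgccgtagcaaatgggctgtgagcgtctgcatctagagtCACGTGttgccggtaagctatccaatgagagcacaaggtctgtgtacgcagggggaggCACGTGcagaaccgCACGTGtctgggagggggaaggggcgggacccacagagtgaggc
Tef: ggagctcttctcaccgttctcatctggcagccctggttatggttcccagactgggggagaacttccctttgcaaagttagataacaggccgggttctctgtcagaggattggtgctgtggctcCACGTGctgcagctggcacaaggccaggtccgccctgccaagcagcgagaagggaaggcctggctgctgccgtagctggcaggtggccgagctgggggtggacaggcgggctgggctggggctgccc
Per3: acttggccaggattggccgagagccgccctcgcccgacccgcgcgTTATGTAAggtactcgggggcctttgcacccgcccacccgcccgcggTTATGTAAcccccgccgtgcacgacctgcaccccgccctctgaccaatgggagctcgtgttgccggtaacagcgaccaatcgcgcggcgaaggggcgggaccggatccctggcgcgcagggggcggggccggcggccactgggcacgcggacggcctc

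The E-box was found in 6.02% of the 32851 promoter windows in the table and in 3 of the 11 genes of the Dbp list with a window there, Tef, Per1 and Ciart. It was also found in 1 of 6 genes of the Arntl list, Cry1, which lay lower at day 2. A gene counted where any of its windows held the motif, so counts of genes and shares of windows are not in the same unit. The D-box was found in 2.06% of windows and in Per3. The ROR element TAGGTCA, which the Nr1d receptors bind, was found in 2.23% of windows and, of the 6 genes of the Arntl list, in Nfil3. Per1 had the E-box but a difference of 0.20, while Dbp and Nr1d2 lay higher with none of these letters in the window.

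Wnt target and stem cell genes lay lower. Of 22 measured, Axin2 passed, 9 had an unadjusted p below 0.05 on the lower side and 0 on the higher side, against 6.18% and 6.62% of all genes, and the median was -0.24. Lgr5, the Wnt-amplifying receptor that marks crypt base stem cells, read 246.7, 208, 220.3, 319.7 and 258.7 at day 0 and 83.65 to 193.7 at day 2 (median 150.4). Its groups did not overlap and its difference was -0.81 ± 0.19 (adjusted p = 0.0772). Ascl2, which sustains these cells, read 293, 339.8, 306.2, 430.6 and 450.7 at day 0 and 85.31 to 282.3 at day 2, also apart (-1.04 ± 0.25, adjusted p = 0.0802). Myc, a growth regulator and Wnt target, had -0.72 ± 0.16 (adjusted p = 0.0665), with day 2 mouse 1 at 821.3 inside the untreated range of 753.2 to 1311.

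Ephb3, a receptor that keeps cells low in the crypt, had -0.63, Rnf43, an inhibitor of Wnt receptors, -0.57, Sox9 -0.44 and Lrig1, a feedback inhibitor found in stem cells, -0.42. Not every target was lower: Nkd1 had -0.11 ± 0.18 and Tnfrsf19 0.37 ± 0.22. Of 11 Wnt ligands and antagonists 0 passed, 9 had a positive sign, against 53.7% of all genes, and the median was 0.24. Rspo3, a stromal R-spondin that boosts Wnt signals through Lgr receptors, read 209.2 to 372.6 at day 0 and 368.7 to 501.4 at day 2, touching at 1 array (0.47 ± 0.16, adjusted p = 0.215). Wnt5a, a stromal ligand, read 341.7 to 391.4 and then 396 to 549.6 in its brightest probe set, without overlap (0.29 ± 0.12), while its other probe sets had 0.04 and -0.23.

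In the BMP and hedgehog list 0 of 21 genes passed and the median was -0.19. An unadjusted p below 0.05 was reached by 5 on the lower side and 1 on the higher, against 6.18% and 6.62% of all genes. The count of 5 was 2 without day 0 mouse 2, 3 without day 2 mouse 1, 2 without day 2 mouse 6 and 1 without day 2 mice 6 and 8. Id1, a direct BMP target that blocks differentiation factors, read 9395, 8478, 8616, 6981 and 6989 at day 0 and 3384 to 6373 at day 2 (-0.67 ± 0.16, adjusted p = 0.0821), without overlap. Id3 had -0.29, the inhibitory Smad7 -0.30 and the hedgehog targets Ptch1 and Hhip -0.37 and -0.54. The ligands Bmp4 and Ihh had -0.03 and 0.10.

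Cell cycle genes, the longest list examined, gave the largest count on 1 side but not the largest share, which was 10 of 14 in the Dbp list. Of 64 measured, 61 were lower in sign, against 46.3% of all genes, and 37 had an unadjusted p below 0.05 on the lower side, against 6.18%. Ube2s alone passed, and the median was -0.39. Top2a, the topoisomerase of dividing cells, read 3132, 2705, 1586, 1482 and 2333 at day 0 and 887.6 to 1723 at day 2 (median 1335), with a difference of -0.74 ± 0.17 (adjusted p = 0.0665). Day 0 mice 3 and 4 lay within the treated range and mice 1, 2 and 5 above it. Mki67 showed the same 2 arrays apart, at 1283 and 1391 against 2709 to 2912 in the other untreated mice and 1010 to 1824 at day 2 (-0.58 ± 0.19). Cdk1, the kinase of mitosis, had -0.66 and Bub1, of the spindle checkpoint, -0.88. Over the list, the mean log2 level ran from 8.86 to 9.63 at day 0 and from 8.52 to 9.15 at day 2. Cyclin D1, Ccnd1, had 0.04 ± 0.07. Without day 0 mouse 1 the median was -0.34, with 23 genes in place of 37 at an unadjusted p below 0.05 on the lower side, and without mouse 4 it was -0.46, with 42.

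Of 26 genes that answer to the ERK kinases 25 were lower in sign, against 46.3% of all genes, and 11 had an unadjusted p below 0.05 on the lower side, against 6.18%. The median was -0.30, and 0 passed the test. Dusp6, an ERK phosphatase and feedback inhibitor, read 5070, 3659, 6019, 4166 and 2461 at day 0 and 1754 to 3290 at day 2 (-0.74 ± 0.18, adjusted p = 0.0794). Etv4, an ERK-driven transcription factor, was apart, at 175.1 to 247.7 and then 18 to 136.4 (-1.43 ± 0.39, adjusted p = 0.113). Day 0 mouse 1 was far above the others in several of these genes. Egr1 read 20040 there, 10070, 10990, 2880 and 2139 on the other untreated arrays and 2323 to 5158 at day 2 (-1.03 ± 0.42). Hbegf, a ligand of the EGF receptor, read 3919 there, 519.1 to 1485 on the other untreated arrays and 370.3 to 1112 at day 2 (-1.004 ± 0.384). Without day 0 mouse 1 the median of the list was -0.21, 7 genes had an unadjusted p below 0.05 on the lower side and 0 passed. That count was also 7 without day 0 mouse 3 and without day 2 mice 6 and 8.

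B and plasma cell genes had a median of -0.34 over 22 measured, and 19 were lower in sign, against 46.3% of all genes. An unadjusted p below 0.05 was reached by 4, all lower, against 6.18% of all genes, and Jchain passed the test. Jchain read 7738, 7912, 9202, 10660 and 7291 at day 0 and 3745 to 5745 at day 2 (median 4568), so every treated array was below every untreated one (-0.87 ± 0.16, adjusted p = 0.0298). Igha, the heavy chain of immunoglobulin A, read 18780, 19540, 22620, 22810 and 17980 at day 0 and 13220 to 16310 at day 2 (-0.45 ± 0.10, adjusted p = 0.0619). Mzb1, a chaperone of antibody secretion, read 255.9 to 514.8 and then 173.6 to 250.7 (-0.75 ± 0.21, adjusted p = 0.119). Jchain, Igha and Mzb1 were the 3 of the 22 without overlap between the days, against 2.27% of all genes. Pou2af1, a B cell coactivator, had -0.65. Of the genes of B cells before the plasma cell stage, Cd22 had -0.50, Bank1 -0.38 and Blnk 0.12, the highest difference in the list. The mean log2 level of the list overlapped, at 8.27 to 9.14 at day 0 and 8.33 to 8.80 at day 2. Its lowest level, 8.27, was that of untreated mouse 5, below every treated array. Leaving out day 0 mouse 3 or mouse 5 took the median of the list to -0.21 or -0.54.

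Of the cytokines and chemokines 0 genes passed, and both lists had medians above 0. Of 14 cytokines 11 were higher in sign, against 53.7% of all genes, with a median of 0.24. The 1 with an unadjusted p below 0.05 was Il1rn, the antagonist of the interleukin 1 receptor (0.49 ± 0.15, adjusted p = 0.144). Il1b had -0.15 ± 0.33, Tnf -0.56 ± 0.43 and Il6 0.43 ± 0.32, with Il6 signals of at most 28.7 on any array of days 0 and 2. Without day 2 mice 6 and 8 the cytokine median was 0.31, with 3 genes at an unadjusted p below 0.05. Of 24 chemokines 0 passed and 4 had an unadjusted p below 0.05 on the higher side, against 6.62% of all genes, with a median of 0.17. That count was 2 without any 1 of day 0 mice 1 and 2 and day 2 mice 17 and 52. Ccl8, a monocyte attractant, read 362 to 545.3 and then 604.3 to 851.6, without overlap (0.67 ± 0.22, adjusted p = 0.185), and Cxcl1, a neutrophil attractant, had -0.10 ± 0.28. The mean log2 level of the chemokine list was 7.94 to 8.04 at day 0 and 8.06 to 8.45 at day 2, so the arrays were apart by 0.02.

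Of 11 neutrophil genes 0 passed and 1 had an unadjusted p below 0.05 on the higher side, against 6.62% of all genes. S100a8, a calcium-binding protein of neutrophils, read 94.26, 193.5, 82.37, 73.66 and 101.5 at day 0 and 23.41 to 479.2 at day 2 (0.53 ± 0.50), so that its treated arrays spread around the untreated ones. Of 24 monocyte and macrophage genes 0 passed and 0 had an unadjusted p below 0.05, with a median of 0.15. In the 17 genes of NF-kappaB and its feedback the median was -0.01, and in the 9 MHC class II genes 0.01. The 34 interferon-stimulated genes had a median of 0.11. An unadjusted p below 0.05 was reached by 4 on the higher side and 1 on the lower, against 6.62% and 6.18% of all genes. Ifitm3 was among the 4 (0.41 ± 0.11, adjusted p = 0.119). The count of 4 was 1 or 2 without day 0 mouse 1, 2 or 5, day 2 mouse 1 or 8, or day 2 mice 6 and 8.

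Acute phase genes were the defence list with the largest median, 0.43 over 13 genes, with 0 past the test. An unadjusted p below 0.05 was reached by 5 on the higher side and 0 on the lower, against 6.62% and 6.18% of all genes. Lcn2, which binds the siderophores of bacteria, read 44.18, 87.55, 81.46, 108.2 and 128.6 at day 0 and 153.1 to 437.3 at day 2 (median 183.7), without overlap (1.27 ± 0.36, adjusted p = 0.128). Day 2 mice 17 and 52 were the highest, at 402.8 and 437.3, and the other 4 lay between 153.1 and 198.2. Serpina3n, a serine protease inhibitor, read 128.1 to 281.4 and then 312.8 to 618.5, also apart (1.23 ± 0.32, adjusted p = 0.102). Saa3, an acute phase amyloid, had 0.43 ± 0.38.

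Of 16 antimicrobial genes 0 passed, 11 were higher in sign, against 53.7% of all genes, and the median was 0.09. An unadjusted p below 0.05 was reached by 2 on the higher side and 1 on the lower, against 6.62% and 6.18% of all genes. A pair of lectins in this list split the treated mice. Reg3g, a lectin that kills Gram-positive bacteria, read 964.8, 483.1, 618.8, 262.6 and 1149 at day 0. At day 2 mice 7, 8 and 52 read 3515, 3699 and 3546, while mice 1, 6 and 17 read 1165, 799.7 and 1065, at or near the untreated range (1.60 ± 0.47, adjusted p = 0.134). Reg3b, a related lectin, was high in the same 3 mice, at 14350, 13610 and 11960, against 3203 to 4545 in the other 3 and 785.4 to 6720 at day 0 (1.42 ± 0.46). Ang4, an antimicrobial ribonuclease, varied among untreated mice from 2343 to 13850 and read 1246 to 2866 at day 2 (-1.69 ± 0.64). Of 20 matrix proteases and inhibitors 0 passed, 12 were higher in sign, against 53.7% of all genes, and 8 lower, and the median was 0.21. An unadjusted p below 0.05 was reached by 3 on the higher side, Mmp3 (0.89 ± 0.27), Mmp10 (0.80 ± 0.35) and the inhibitor Timp1 (0.45 ± 0.21), and by 1 on the lower, the aggrecanase Adamts4 (-0.84 ± 0.36).

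Epithelial identity genes had medians near 0. Of 31 absorptive colonocyte genes 0 passed and the median was 0.05. Of 25 goblet cell genes 0 passed, 6 had an unadjusted p below 0.05 on the higher side, against 6.62% of all genes, and the median was 0.10. The count of 6 was 2 without day 0 mouse 1 and 2 without day 2 mice 6 and 8. It was 3 when day 0 mouse 2, day 2 mouse 8 or the pair of day 2 mice 17 and 52 was left out. The mean log2 level of the goblet list was nevertheless apart, at 12.03 to 12.13 and then 12.16 to 12.35. Sytl2 (0.43 ± 0.13), which acts in granule release, and Atoh1 (0.45 ± 0.18), the transcription factor of secretory cells, were the members with the lowest p, and Muc2, the main colon mucin, had 0.08 ± 0.04. Among 35 genes of water and ion transport Cftr, the apical chloride channel, read 2023 to 2281 and then 1246 to 1744 (-0.51 ± 0.13, adjusted p = 0.0854). Aqp8, a colonocyte water channel, read 7548 to 8215 and then 4019 to 7342 (-0.41 ± 0.28, adjusted p = 0.577). Cftr, Aqp8 and Aqp4 were the 3 of the 35 without overlap between the days, against 2.27% of all genes.

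Enteroendocrine genes had a median of 0.20 over 22, with 4 at an unadjusted p below 0.05 on the higher side, against 6.62% of all genes. That count was 7 without day 0 mouse 3, 8 without day 2 mouse 6 and 2 without day 2 mice 17 and 52. Gcg, the precursor of glucagon-like peptides, read 2015, 2495, 2619, 3141 and 2161 at day 0 and 3115 to 4703 at day 2 (median 3791), with day 0 mouse 4 above the lowest treated array (0.62 ± 0.13, adjusted p = 0.0619). Chga, of hormone granules, had 0.55 and Cck, which encodes cholecystokinin, 0.51. In fatty acid oxidation, 24 of 26 genes were higher in sign, against 53.7% of all genes, with a median of 0.11. Cpt1a, which admits fatty acids to mitochondria, read 4533 to 5413 and then 5752 to 6647 (0.31 ± 0.09, adjusted p = 0.128), while Ppargc1a, a coactivator of mitochondrial genes, read 1029 to 1394 and then 433 to 937.8 (-0.70 ± 0.29, adjusted p = 0.303), both without overlap. The 4 dimmer probe sets of Ppargc1a lay between -0.11 and 0.20. The 41 genes of mitochondrial respiration had a median of 0.04 and 0 passed.

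Genes of the muscle wall, vessels and nerves lay slightly higher, with 0 past the test in each list. Of 22 smooth muscle genes 11 had an unadjusted p below 0.05 on the higher side, against 6.62% of all genes, and 1 on the lower, with a median of 0.18. The count of 11 was 6 without day 0 mouse 1, 7 without day 2 mouse 6, 7 without day 2 mouse 17 and 7 without day 2 mice 17 and 52. Actg2, the enteric smooth muscle actin, read 13410 to 15630 and then 17300 to 19810, without overlap (0.32 ± 0.11, adjusted p = 0.207). Of 32 endothelial genes 6 had an unadjusted p below 0.05 on the higher side, Sox17 (0.67 ± 0.20) among them, and 0 on the lower. The shares of all genes were 6.62% and 6.18%, and the median of the list was 0.23. Of 26 genes of enteric neurons and glia 21 were higher in sign, against 53.7% of all genes, and the median was 0.16. An unadjusted p below 0.05 was reached by 8 on the higher side and 0 on the lower, against 6.62% and 6.18% of all genes. The count of 8 was 5 without day 0 mouse 3 and 5 without day 2 mice 6 and 8. Gal, the neuropeptide galanin, read 475.2 to 680.7 and then 692.7 to 959.6 (0.47 ± 0.13, adjusted p = 0.12), and Elavl3, a neuronal RNA-binding protein near the low end of the array, 10.02 to 71.59 and then 72.22 to 174.4 (1.47 ± 0.34, adjusted p = 0.0739). The mean levels of the smooth muscle and endothelial lists were apart between the days, at 11.81 to 11.96 and 11.97 to 12.12 for the first and 8.07 to 8.41 and 8.42 to 8.63 for the second. The 29 genes of fibroblasts and matrix had a median of -0.02. Without day 2 mice 6 and 8 the medians were 0.20 for smooth muscle, 0.17 for endothelium and 0.18 for neurons and glia. The part that the amount of muscle wall in each piece has in these values was not tested.

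Marker lists of other tissues moved with single arrays. The pancreas list had a median of 0.82, and without day 2 mice 6 and 8 it was 0.03. Prss2, a trypsinogen, read 28000 on day 2 mouse 6 and 111.2 to 335.2 on the other treated arrays. Iapp, the islet peptide amylin that some gut endocrine cells also make, did not follow it, at 86.59 on mouse 6 and 212.3 to 585.1 on the other treated arrays, against 42.71 to 270.2 at day 0 (1.55 ± 0.48, adjusted p = 0.154). Skeletal muscle genes had a median of 0.20, which was -0.14 without day 2 mouse 6, -0.08 without mouse 7 and 0.99 without mouse 8. Squamous genes had 0.08, which was 0.65 without day 2 mouse 8 and -0.22 without mice 17 and 52. Adipocyte genes had -0.14, which was 0.15 without day 0 mouse 5 and -0.30 without day 2 mouse 6. Mesothelial genes had 0.19, T and NK cell genes 0.32 over 5 measured and dendritic cell genes -0.00 over 8. Of the red blood cell list 0 genes were measured with a single symbol and could be tested.

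**Figure D4:**
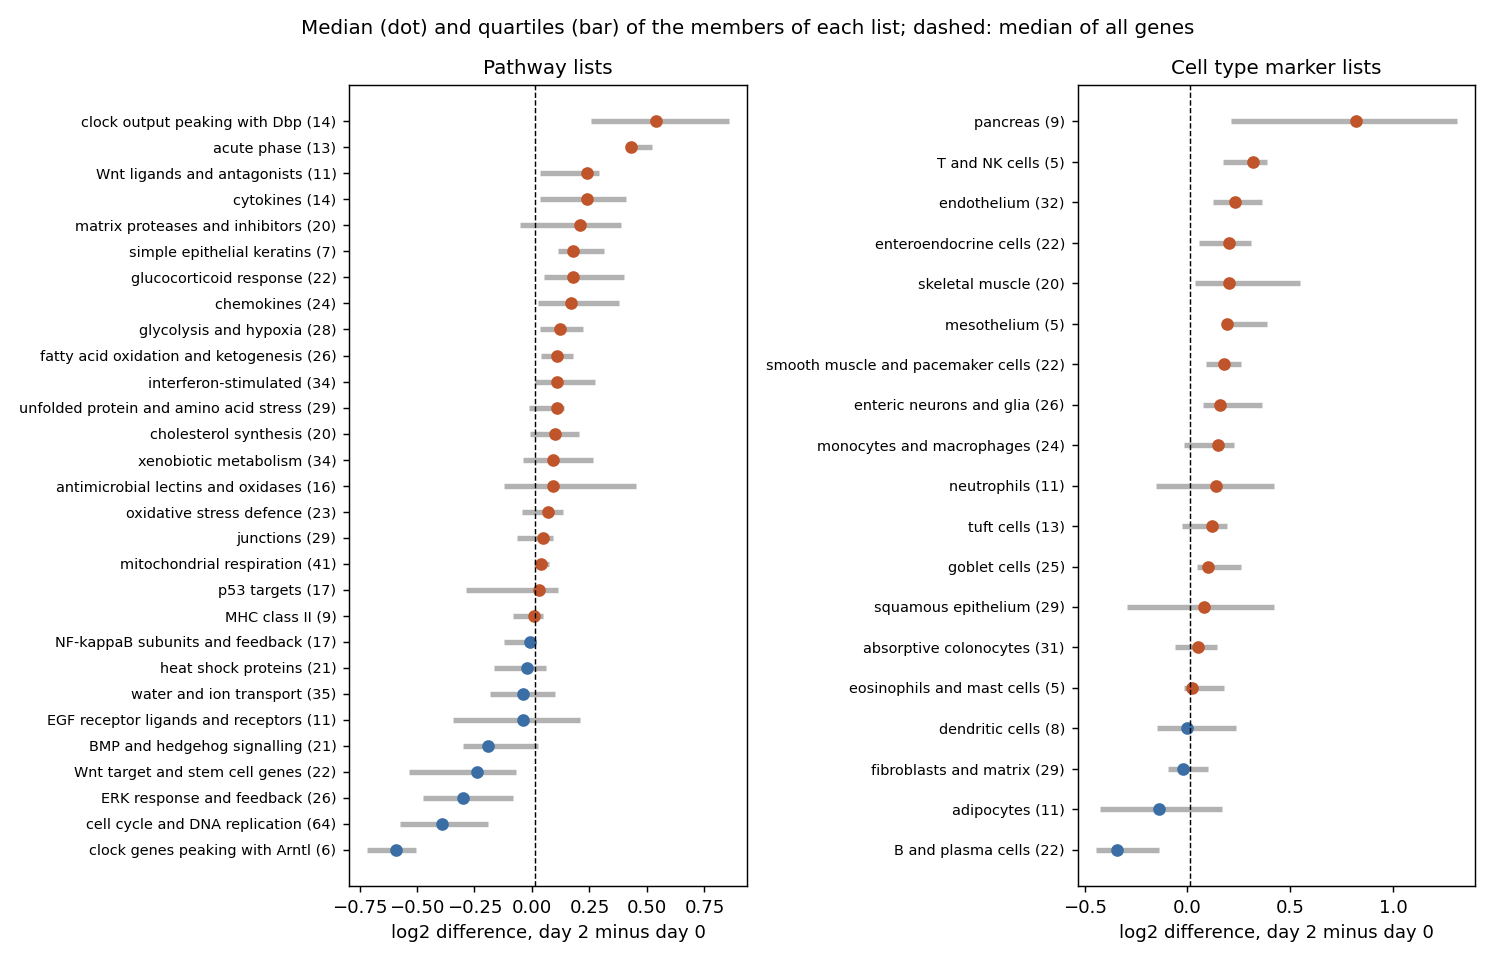
Median (dot) and quartiles (bar) of the differences between day 2 and day 0 over the measured members of each list, whose number stands in brackets, in log2(signal + 16); the dashed line is the median of all genes, 0.01. Clock genes peaking with Dbp (0.54) and acute phase genes (0.43) are highest among the pathways, clock genes peaking with Arntl (-0.59) and cell cycle genes (-0.39) lowest, and B and plasma cells (-0.34) are lowest among the marker lists.

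The remaining pathway lists had medians near that of all genes and 0 genes past the test: 0.05 for cell junctions, 0.03 for p53 targets, 0.07 for oxidative stress defence, 0.09 for xenobiotic metabolism, 0.10 for cholesterol synthesis, 0.12 for glycolysis and hypoxia, -0.02 for heat shock proteins, -0.04 for ligands and receptors of the EGF receptor family and -0.04 for water and ion transport. In the EGF receptor family 4 of 11 genes had an unadjusted p below 0.05 on the lower side and 2 on the higher. Of 17 p53 targets 4 did so on the lower side and 1 on the higher, against 6.18% and 6.62% of all genes. The lower count was 2 without day 2 mice 17 and 52 for the first list. For the second it was 1 without day 2 mice 6 and 8. The list of glucocorticoid response genes had a median of 0.18, with Fkbp5, a cochaperone of the glucocorticoid receptor, at 0.61 ± 0.21. In the list of unfolded protein and amino acid stress (median 0.11) Asns, asparagine synthetase, read 1083 to 1305 and then 1329 to 2020, without overlap (0.41 ± 0.11, adjusted p = 0.102).

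The later arrays show where these levels went, side by side and without a test, since they share the untreated arrays. Krt7 had median signals of 2772 at day 0, 4151 at day 2, 2910 at day 4 and 2924 at day 6, and Jchain 7912, 4568, 7194 and 6029. Axin2 was at 751.8, 367.6, 441.3 and 414.2 and Lgr5 at 246.7, 150.4, 152.7 and 122.2, so both medians stayed below day 0. Top2a went from 2333 to 1335, 1507 and 2200 and Dbp from 573.9 to 2721, 1911 and 508.6. Defence genes had their highest medians at day 6: Lcn2 was at 87.55, 183.7, 270.5 and 1353, Reg3g at 618.8, 2340, 2450 and 13810 and S100a8 at 94.26, 197.8, 228.7 and 4736.

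**Figure D5:**
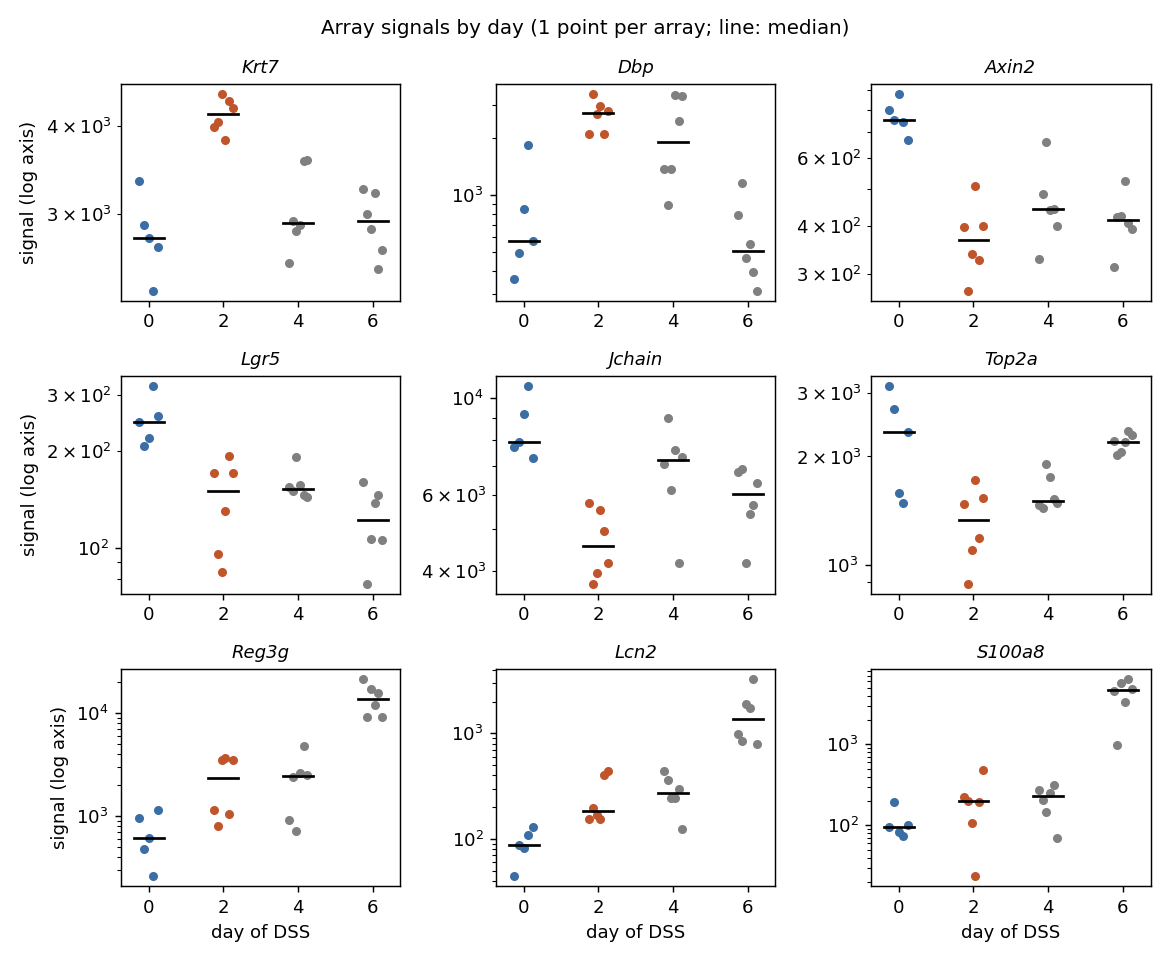
Signals (log axis) of 9 genes by day, 1 point per array, with the median as a line; day 0 has 5 arrays and the other days 6 each. Every day 2 array of Krt7 (3813 or more) is above every array of the other days, Axin2 and Lgr5 are lower on each treated day, and Lcn2, Reg3g and S100a8 are highest at day 6.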

How the data were processed

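Total RNA from 23 colons, 5 to 6 per day, was hybridized to 1-colour Affymetrix arrays, 1 array per mouse. The deposited values are linear signal intensities, made with MAS5 per the submitters' processing notes, whose version is not given in the sources used here. In the values each array has a trimmed mean of 500 (2% cut at each end), so arrays were already scaled by the authors. Number of arrays, not read depth, limits the precision.

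Of 45101 probe sets, 64 controls were left out. The platform table gave 34945 probe sets 1 gene symbol, 932 several and 9160 none, and only those with 1 symbol were named. Probe sets above their array's own median signal on at least 5 arrays were kept (24627), and the brightest kept probe set stood for its gene (12463 genes). Log2(signal + 16) was fitted with limma 3.58.1 in R 4.3.3 (lmFit, eBayes with trend) over all 4 days, and day 2 minus day 0 was tested with Benjamini-Hochberg adjustment. RNA quality was tested with two-sided exact permutation tests. On simulated data with the real arrays' spread, this fit found 55.9%, 87.9% and 97% of genes changed by 0.5, 1 and 2 in log2. There were 68, 66 and 66 such genes, and 6 of 166 calls were false. The real comparison gave 10 calls, and with fewer calls the adjustment asks for a smaller unadjusted p. The simulation therefore does not tell what share of real changes of these sizes was found.

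The genes described and the 49 gene lists (1238 entries, 1003 measured) were chosen with earlier results of these data known. By rule the text names each gene past the test, the 15 agreeing genes of largest median in each direction and up to 3 members of a list with the lowest p. It names 128 genes, 73 by this rule. The other 55, such as Krt20, Nkd1, Il1b, S100a8, Muc2 and Bmp4, were chosen after their values were seen.

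Alternatives were other pseudocounts (1 and 64), filters and scalings, probe set means, array weights, a replicate block by mouse number, and arrays left out in turn. Days 0 and 2 share only 1 mouse number, and the labels do not say that numbers pair mice.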

Additional observations from a re-analysis of the deposited data

Results flagged for a closer look

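Within the 5 untreated or the 6 treated arrays, 1 value stood far from the rest of its group in 21 of 316 groups examined, by Dixon's test at its 95% level. Chance gives about 1 in 20 such groups. Day 0 mouse 4 was high in Ciart (273.2), Per3 (291.6) and Marchf3 (506.4) and had the lowest mean log2 level of oxidative stress defence genes (11.07). Day 0 mouse 1 was high in Hbegf (3919), Il1b (199.5) and Iapp (270.2), and day 0 mouse 2 in Etv4 (247.7), Mmp3 (138) and S100a8 (193.5). Day 2 mouse 6 was high in Prss2 (28000), Cry1 (418.4) and the mean log2 level of pancreas genes (13.62), and low in that of xenobiotic metabolism (10.49), T and NK cell (6.85) and enteroendocrine genes (9.35). Day 2 mouse 8 was low in the squamous genes (6.47), day 2 mouse 1 high in the ligands and receptors of the EGF receptor family (9.87) and day 2 mouse 52 high in Saa3 (324.8). Day 2 mouse 7 was low in Ndufa4 (6664), and day 2 mouse 17 was high in Adamts4 (149.4).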

How the results depend on the processing

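The count of genes past the test was 10 with all arrays and stayed within 1.5 times of it with other pseudocounts, filters, scalings and probe set means. The genes were not all the same. Of the 10, 7 passed with no filter on low signals, 9 with quantile normalization and 8 each with median centring and probe set means. Fbxo33 did not pass with no filter or with either scaling. Ube2s did not pass with no filter or with median centring, and Dbp did not pass with no filter. It was 60 with the 11 arrays alone and 135 with array weights, 3 without day 2 mice 6 and 8 and 0 without day 2 mice 17 and 52 (1332 at an unadjusted p below 0.05 in limma). With the replicate block by mouse number (correlation 0.027) it was 10, with the same 10 genes. Leaving out 1 array at a time gave 4 to 32 genes, 8 to 65 probe sets (30 with all arrays), 35 to 49 agreeing genes (27) and 334 to 468 genes without overlap (283), and without day 2 mice 6 and 8 the last 3 were 5, 51 and 625. Fewer arrays make it easier for groups not to overlap. With the 11 arrays alone 127 probe sets passed, and 10 genes agreed when every kept probe set had to separate the arrays. Quantile normalization and median centring shared 24 and 21 of the 27 agreeing genes. The cause of the other changes was not tested.

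Of the values of single genes under alternatives, 2387 of 2526 kept their sign and their side of the threshold, 73 lost a call, 47 gained one and 19 changed sign, all 19 of genes that had not passed. With the mean of all probe sets Ccnd1 had -0.089, Igf2r -0.152 and Nkd1 0.026. Krt20 had 0.015 with median centring and 0.011 without day 2 mice 6 and 8, which also gave 0.022 for Cxcl1 and 0.021 for Il1b. Without mice 17 and 52, Cxcl1 had 0.114 and Bmp4 0.016. With 1 array left out the values ran from -0.159 to 0.055 for Bmp4, from -0.045 to 0.044 for Krt20, from -0.261 to 0.035 for Cxcl1, from -0.017 to 0.071 for Ccnd1 and from -0.012 to 0.169 for Ihh. The median of B and plasma cell genes ran from -0.54 to -0.21 and that of neutrophil genes from -0.02 to 0.46.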

Other observations

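In 24 of the 26 genes of fatty acid oxidation and in 32 of the 41 genes of mitochondrial respiration the sign was higher at day 2, against 53.7% of all genes, and the largest difference in the second list was 0.16, for Ndufa4 of complex IV. Cholesterol synthesis genes split the untreated mice: the mean log2 level of the 20 genes ran from 10.40 to 11.11 at day 0 and from 10.67 to 11.13 at day 2, and the median difference was 0.23 without day 0 mouse 1 and -0.01 without day 0 mouse 4. Tuft cell genes had a median of 0.12 over 13, with 1 at an unadjusted p below 0.05 (Dclk1, 0.20). Eosinophil and mast cell genes had 0.02 over 5. These genes were chosen after their values were seen, and the differences were not tested beyond the fit already described.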
